A study of Mus musculus with 17 samples.

Results

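Hearts of tumour-bearing mice that swam were set against hearts of mice without a tumour, by RNA sequencing. The tumour_swim group (genotype label ModelSwimming) holds 6 hearts from mice that carried a transplanted CT-26 tumour and were given swimming exercise. The control group (label CON) holds 5 hearts from mice with no tumour and no swimming. These 11 libraries were chosen by their labels from 17; the other 6 came from tumour-bearing mice that did not swim (tumour) and appear below only where tumour_swim hearts are set beside them. CT-26 cells come from a carcinoma of the mouse colon and form grafts. The study was laid out to ask whether aerobic exercise alters cardiac dysfunction under tumour growth; cardiac inflammation, cell death and the PI3K-AKT pathway are named in its title. With no swimmers free of a tumour, the tumour and the swimming cannot be told apart in tumour_swim against control. Strain, sex, age, graft site and swimming schedule are not stated in the labels. Nothing in the labels tells whether each sample is its own animal, so the p-values only measure how these samples spread, part of which may be technical.

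A tumour growing away from the heart can reach it through the blood. Cytokines of the interleukin-6 family act through STAT3 and C/EBP factors to switch on acute phase genes, whose secreted products bind iron, haemoglobin, bacterial lipids and proteases, and complement proteins mark cells for removal. Heart muscle also carries a large store of chaperones, kept up by heat shock factor, which fold and guard contractile proteins. Exercise and insulin-like growth factors act on heart muscle through PI3K and AKT, and apelin, a peptide hormone made by endothelial and heart cells, acts on vessel tone and contraction.

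The deposited values were FPKM, reads scaled to exon length and to the assigned reads of the library, and were tested as log2(FPKM + 1). Genes entered where tumour_swim or control averaged at least 0.5 FPKM, which left 13402 of 28640. A gene was called where limma's two-sided moderated test gave a Benjamini-Hochberg adjusted p under 0.05. Fold changes are log2 differences of tumour_swim minus control on that scale, and for genes near or below 1 FPKM they are smaller than the ratio of FPKM. The labelled tissue was borne out by its markers: cardiac troponin T (Tnnt2) lay at 743 to 1045 FPKM in tumour_swim and 634 to 1257 FPKM in control, and phospholamban (Pln) at 506 to 777 FPKM in tumour_swim and 486 to 744 FPKM in control. Nppa, an atrial hormone gene, was at 3.30 to 51.6 FPKM in tumour_swim and 3.40 to 21.8 FPKM in control. In tissue RNA, fewer cells of a type and less RNA per cell cannot be told apart.

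Tumour_swim 1, control 1 and control 4 stood apart from the other libraries, and the results below rest on how they were treated. Depth was 15.4 ± 1.06 M reads in tumour_swim (SD, n = 6) and 15.99 ± 1.05 M reads in control (n = 5). Long transcripts were scarce in these 3 libraries: Spearman's rho across genes of each library's deviation from its group, taken against exon length, was -0.57 in tumour_swim 1, -0.56 in control 1 and -0.60 in control 4, where genes are not independent replicates. Control 2 and control 3 had rho of 0.60 and 0.62, but against a group that holds controls 1 and 4. Spearman's rho of a library's own FPKM against exon length was -0.40 in tumour_swim 1, -0.32 in control 1 and -0.40 in control 4. It was -0.077 in control 2 and -0.084 in control 3, against -0.14 to -0.072 in tumour_swim 2 to 6. Control 5 lay between, at -0.23. Transcripts of the mitochondrial genome took 46.3% of reads in tumour_swim 1, 26.2% in control 1 and 30.8% in control 4, against 18.7% to 22.3% in the other tumour_swim hearts and 22.1%, 26.2% and 16.9% in controls 2, 3 and 5, so control 1 did not differ from control 3 in this share. Sample weights estimated from the data were 0.0572 for tumour_swim 1, 0.475 for control 1 and 0.173 for control 4, against 1.24 to 3.25 for the other tumour_swim libraries and 0.762 to 0.901 for the other controls. In estimating weights limma reported non-convergence, so weighted calls are uncertain and results are given with and without weights.

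**Figure D1:**
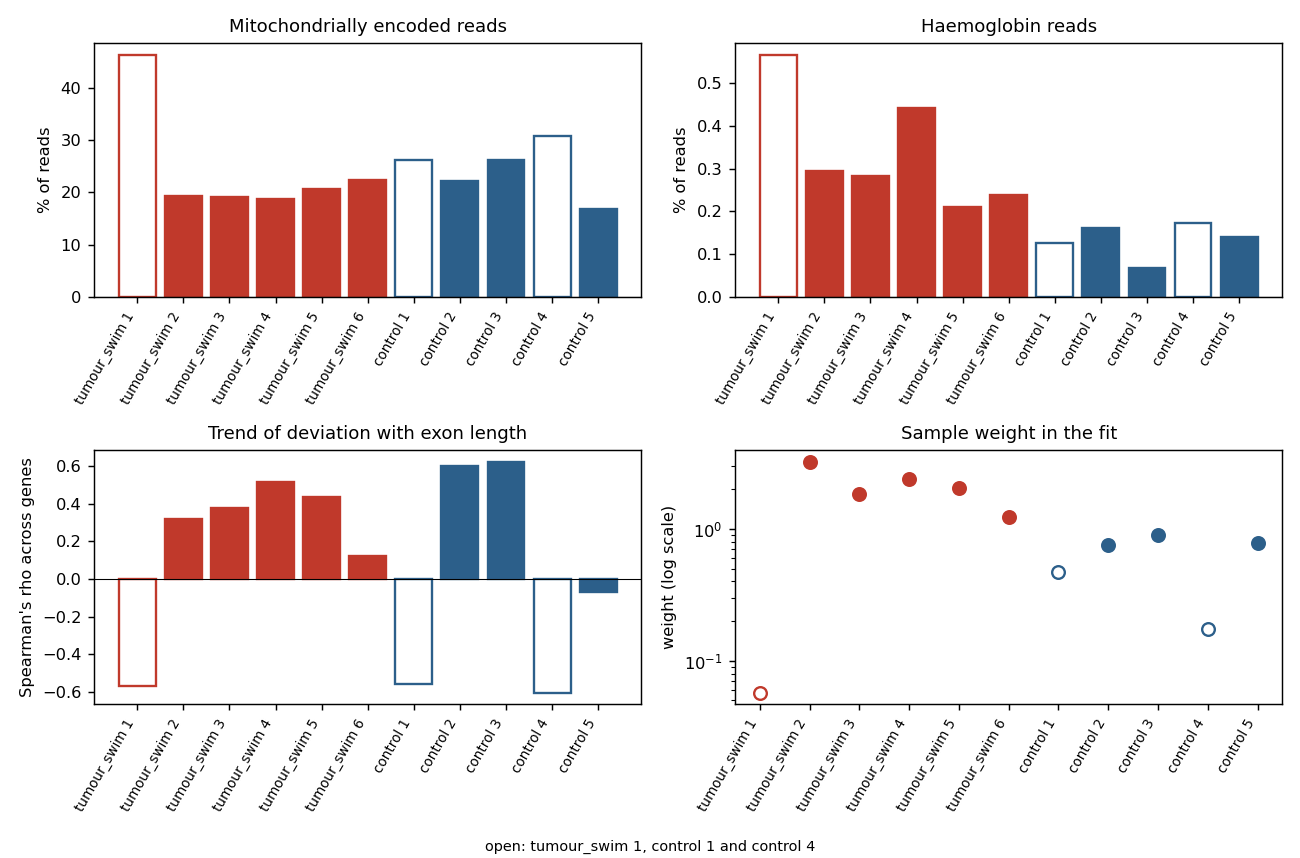
Share of reads from mitochondrially encoded genes, share from haemoglobin genes, Spearman's rho of deviation against exon length, and sample weight (log axis) in each of the 6 tumour_swim and 5 control libraries. The 3 libraries drawn open have rho between -0.60 and -0.56, and tumour_swim 1 has both the highest mitochondrial share, 46.3%, and the lowest weight, 0.0572.

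With sample weights, 375 genes were higher and 101 lower in tumour_swim than in control hearts, which is 3.55% of the genes tested (2.8% higher and 0.754% lower). Weighted counts of list members below are to be set beside these shares. Of these, 117 of the higher and 14 of the lower changed by 2-fold or more. Without weights the counts were 76 higher and 50 lower, and without the 3 libraries that stood apart, also unweighted, 262 and 90. The fit without the 3 libraries keeps control 5, whose own FPKM also fell with exon length more than in controls 2 and 3. Median-of-ratios scaling without weights gave 190 higher and 178 lower, and the share of calls that were higher was 51.6% there, 60.3% without weights on FPKM as deposited, 48.9% with weighted median-of-ratios scaling and 78.8% in the weighted fit. Over all genes the median log2 fold change stood at 0.11 in the weighted fit and 0.00 with median-of-ratios scaling. Called in all 4 of these fits were 60 higher and 24 lower genes (0.448% and 0.179% of those tested); this set was put together after the values were seen, and genes in it are named below as called in all 4 fits. All 6 tumour_swim hearts lay above all 5 controls for 96 genes (0.716%), 60 of them called higher, and below all 5 for 119 genes (0.888%), 49 of them called lower.

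The weighted counts moved by over 1.5 times when single libraries were left out. Leaving out tumour_swim 1 gave 855 higher and 157 lower genes, and leaving out tumour_swim 3 gave 246 higher and 86 lower. Without control 1, control 4 or control 5 the counts were 1065 and 256, 929 and 210, and 2327 and 422. Without control 2 or control 3 they reached 7480 and 3450, and 7444 and 3427, with control 1 at a weight of 191 or 90.1 in those fits. In the unweighted fit, leaving out tumour_swim 1 gave 1820 higher and 371 lower genes.

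The largest rise was in Serpina3n. This gene, an acute phase inhibitor of serine proteases (chromosome 12, + strand, 104406729 to 104414329 on GRCm38), lay between 52.6 and 258 FPKM in tumour_swim hearts with a median of 105, against 8.82, 3.95, 5.36, 5.52 and 5.64 FPKM in controls 1 to 5. The lowest tumour_swim heart, tumour_swim 1, was still far above the highest control. The log2 fold change was 4.28 ± 0.41 (SE, limma adjusted p = 1.74e-05), and over 52 alternative settings it stayed between 3.68 and 4.54. Paralogues of the Serpina3 cluster are alike in sequence, so reads may be shared between them. Serpina3h, a neighbour in the cluster, averaged 6.36 ± 2.02 FPKM in tumour_swim and 1.74 ± 0.236 FPKM in control, and was called in all 4 fits (1.42, limma adjusted p = 0.000718).

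Some complement genes were also called higher. C3, the component on which all complement pathways converge (chromosome 17, - strand, 57203970 to 57228136), had 26.2, 146, 179, 139, 158 and 115 FPKM in tumour_swim 1 to 6, against 15.2, 25.4, 25.2, 7.12 and 26.3 FPKM in controls 1 to 5. Tumour_swim 1 fell among the controls and the other 5 lay well above them. The log2 fold change was 2.67 ± 0.30 (SE, limma adjusted p = 0.000143). C4b, which carries the classical and lectin pathways to C3, lay between 5.04 and 33.8 FPKM in tumour_swim (median 20.5), against 1.53, 2.56, 1.59, 0.423 and 2.31 FPKM in controls. The groups did not overlap, and the log2 fold change was 2.94 ± 0.33 (SE, limma adjusted p = 0.000134). Of 17 complement genes tested, 9 were called higher and 0 lower, with a list median of 0.77 against 0.11 for all genes. C1s1, a protease of the first component, averaged 18.8 ± 7.26 FPKM in tumour_swim and 5.32 ± 1.17 FPKM in control. Serping1, the inhibitor of that protease, averaged 139 ± 34.6 FPKM in tumour_swim and 61.3 ± 15.2 FPKM in control. All 4 of these genes were called in all 4 fits, and without weights 4 of the 17 were called.

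The acute phase and IL6-STAT3 list had 10 of 17 tested members higher and 0 lower, with a median of 0.97, and 13 of its 30 genes lay below the limit of expression. Hp, which encodes the haemoglobin-binding protein haptoglobin, had 3.77 to 14.0 FPKM in tumour_swim (median 5.02), against 0.357, 0.375, 0.119, 0.563 and 0.207 FPKM in controls. Every control was below 1 FPKM and every tumour_swim heart above 3 FPKM (2.49 ± 0.59, SE, limma adjusted p = 0.0262). Lbp, which binds bacterial lipopolysaccharide, averaged 4.24 ± 1.47 FPKM in tumour_swim and 0.809 ± 0.412 FPKM in control (1.51, limma adjusted p = 0.000718). Lcn2, an iron-carrier-binding protein, averaged 7.96 ± 4.40 FPKM in tumour_swim and 1.48 ± 0.869 FPKM in control (1.63, limma adjusted p = 0.0262). Socs3, the feedback inhibitor of STAT3 signalling, averaged 4.30 ± 1.64 FPKM in tumour_swim and 1.46 ± 0.408 FPKM in control (1.07, limma adjusted p = 0.00700). These 4 genes did not overlap between the groups and were called in all 4 fits. Osmr, the oncostatin M receptor, averaged 5.11 ± 2.08 FPKM in tumour_swim and 2.05 ± 0.946 FPKM in control, and its call was lost without weights (limma adjusted p = 0.00420 with weights and 0.162 without).

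**Figure D2:**
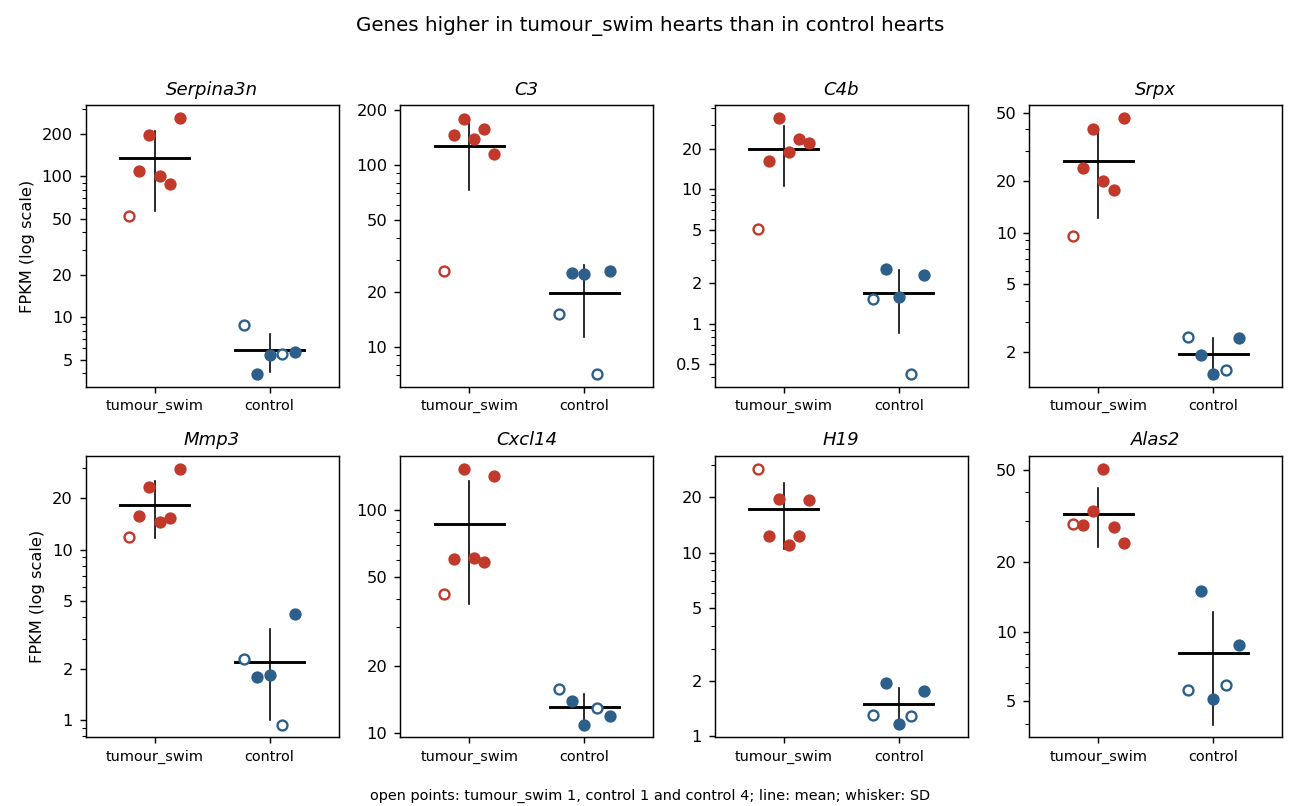
FPKM (log axis) of 8 genes in each tumour_swim (left) and control (right) heart, with mean and SD; open points are tumour_swim 1, control 1 and control 4. The groups are apart for every gene drawn except C3, where tumour_swim 1, at 26.2 FPKM, lies among the controls.

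Cytokine and matrix genes were among the other large rises. Cxcl14, a chemokine of epithelial and stromal cells, had 42.1, 60.2, 153, 61.3, 58.3 and 143 FPKM in tumour_swim 1 to 6, against 10.9 to 15.8 FPKM in controls. Tumour_swim 3 and tumour_swim 6 were more than 2-fold above the other tumour_swim hearts, and both were also the highest of the group for Serpina3n, Srpx, Mmp3 and Apod. The log2 fold change of Cxcl14 was 2.53 ± 0.39 (SE, limma adjusted p = 0.00160). Il33, an alarmin cytokine held in the nuclei of stromal and endothelial cells (chromosome 19, + strand, 29925114 to 29960718), lay between 6.21 and 17.9 FPKM in tumour_swim (median 11.8), against 4.06, 3.08, 3.12, 1.69 and 2.37 FPKM in controls (1.77 ± 0.30, SE, limma adjusted p = 0.00321). Ccl11, the eosinophil chemokine, averaged 8.06 ± 2.86 FPKM in tumour_swim and 2.37 ± 1.19 FPKM in control (1.45, limma adjusted p = 0.00747). Of 28 cytokine, chemokine and NF-kB target genes tested, 7 were higher and 0 lower, with a median of 0.38, and without weights 4 were higher. The adhesion molecule gene Icam1, called with weights (1.05, limma adjusted p = 0.00316), was not called without them (adjusted p = 0.156). Il6 and Tnf, the cytokines most often tied to wasting, stayed below the limit of expression, with means of 0.0483 and 0.326 FPKM in tumour_swim and 0.0110 and 0.356 FPKM in control.

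Srpx, a secreted sushi-repeat protein, lay between 9.58 and 46.5 FPKM in tumour_swim (median 21.9), against 2.45, 1.92, 1.49, 1.57 and 2.41 FPKM in controls (3.17 ± 0.37, SE, limma adjusted p = 0.000144). Mmp3, a matrix metalloproteinase that cleaves proteoglycans, had 11.8 to 29.8 FPKM in tumour_swim (median 15.5), against 2.26, 1.78, 1.85, 0.937 and 4.17 FPKM in controls. Neither gene overlapped between the groups. Apod, a lipid-binding protein, averaged 53.1 ± 29.6 FPKM in tumour_swim and 7.39 ± 2.71 FPKM in control. Serpine2, an inhibitor of thrombin and plasminogen activators, averaged 18.8 ± 8.28 FPKM in tumour_swim and 4.59 ± 1.36 FPKM in control, and Prg4, a lubricating proteoglycan, 7.73 ± 4.45 FPKM in tumour_swim and 0.938 ± 0.402 FPKM in control. All 5 were called in all 4 fits. Of 43 extracellular matrix and remodelling genes tested, 4 were higher and 0 lower, against 2.8% and 0.754% of all genes. The list median was 0.44. Besides Mmp3 the higher ones were Mmp2, Lox and Tgfb2, none of which was called without weights (limma adjusted p = 0.243, 0.157 and 0.391). Tgfb2 was also lost without tumour_swim 4 (adjusted p = 0.0501).

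H19, an imprinted non-coding transcript of fetal growth that is low in adult muscle (chromosome 7, - strand, 142575529 to 142578143), had 28.5, 12.4, 19.5, 10.98, 12.3 and 19.4 FPKM in tumour_swim 1 to 6, against 1.31, 1.96, 1.17, 1.298 and 1.76 FPKM in controls. All tumour_swim hearts were above 10 FPKM and all controls below 2 FPKM. The log2 fold change was 2.55 ± 0.51 (SE, limma adjusted p = 0.00971), and the gene was called in all 4 fits.

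Some markers of blood and immune cells were called higher in the same hearts. Alas2, the erythroid enzyme of haem synthesis (chromosome X, + strand, 150547375 to 150570638), lay between 24.2 and 50.4 FPKM in tumour_swim (median 29.1), against 5.61, 15.0, 5.13, 5.89 and 8.72 FPKM in controls (1.92 ± 0.31, SE, limma adjusted p = 0.00206). Haemoglobin genes took 0.339 ± 0.137% of reads in tumour_swim (n = 6) and 0.134 ± 0.0414% in control (n = 5), with no overlap (exact two-sided permutation p = 0.00433, and 0.0216 adjusted over 5 library measures). Without the 3 libraries that stood apart the shares were 0.293% and 0.124% (n = 5 and 3), and the exact two-sided permutation p was 0.0357, or 0.0893 adjusted, the smallest raw p that 5 against 3 allows. Of 8 erythroid markers tested 4 were higher and 0 lower, with a median of 1.14, and the list's summed level ranged from 2750 to 7298 FPKM in tumour_swim and from 876 to 2274 FPKM in control. Globin paralogues share reads, so Hbb-bs (1.28, limma adjusted p = 0.0251) and Hba-a1 (1.44, limma adjusted p = 0.0316) are given as uncertain; under unweighted median-of-ratios scaling neither was called (adjusted p = 0.152 and 0.0715), and Hba-a1 was also lost without tumour_swim 3 (adjusted p = 0.0508).

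S100a8 and S100a9, whose products form the neutrophil protein calprotectin, were higher in tumour_swim hearts. S100a8 had 1.56 to 4.32 FPKM in tumour_swim (median 2.57), against 0.331, 0.193, 0.0921, 0.695 and 0.383 FPKM in controls (1.34 ± 0.29, SE, limma adjusted p = 0.0144). S100a9 had 5.17, 5.62, 6.44, 1.74, 7.28 and 8.81 FPKM in tumour_swim 1 to 6, against 0.660, 0.640, 0.735, 1.96 and 0.892 FPKM in controls. Tumour_swim 4 lay below control 4 for S100a9 and the groups were otherwise apart (1.76 ± 0.41, SE, limma adjusted p = 0.0245, and 0.0548 without tumour_swim 2). Of 6 neutrophil markers tested 3 were higher and 0 lower, with a median of 0.69. The summed level of the 18 listed markers was 64.2 to 89.6 FPKM in tumour_swim and 32.7 to 48.8 FPKM in control, and the defining marker Ly6g was at 0 in all 11 libraries. Only 6 of the 18 passed the limit of expression, so the sum rests on few genes and does not stand for all 18. In tumour_swim 4 S100a8 and S100a9 were at 1.83 and 1.74 FPKM, a small part of its sum of 64.2 FPKM.

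Of 24 monocyte and macrophage markers tested 6 were higher and 0 lower, with a median of 0.56, but without weights 1 was higher and none was called in all 4 fits. Cd163, the haemoglobin scavenger receptor of resident macrophages, had 1.66, 11.3, 11.5, 10.1, 10.4 and 9.92 FPKM in tumour_swim 1 to 6, against 3.53, 5.44, 4.03, 1.71 and 2.90 FPKM in controls. Tumour_swim 1 was lower than every control and the other 5 were above all of them; the call rested on weights (1.29, limma adjusted p = 0.00501 with weights and 0.196 without). Lyve1, a hyaluronan receptor of resident macrophages and lymphatic vessels, was likewise low in tumour_swim 1, at 4.13 FPKM, with 14.9 to 25.8 FPKM in the other tumour_swim hearts, against 3.67 to 9.18 FPKM in controls. No T or NK cell marker passed the limit of expression, and of 3 B cell markers tested 0 were called by limma, with 0 at an unadjusted p under 0.05. The part of blood and immune cell content in the inflammatory changes was not tested.

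Of 18 fibroblast markers tested 5 were higher and 1 lower, with a median of 0.63, but without weights 0 were called by limma, with 7 at an unadjusted p under 0.05, and none was called in all 4 fits. Fbln1, a matrix protein of fibroblasts, averaged 37.3 ± 14.3 FPKM in tumour_swim and 14.3 ± 6.92 FPKM in control (1.36, limma adjusted p = 0.00297 with weights and 0.108 without). Pdgfra, the receptor that defines cardiac fibroblasts, averaged 10.6 ± 4.64 FPKM in tumour_swim and 5.27 ± 2.42 FPKM in control (0.92, limma adjusted p = 0.0248 with weights and 0.408 without). The summed level of the list was 549 FPKM in tumour_swim 1 and 1444 to 1869 FPKM in the other tumour_swim hearts, against 686 to 1273 FPKM in controls. Of 20 endothelial markers tested 2 were higher, Lyve1 and Vwf, against 2.8% of all genes. Vwf, the clotting carrier protein of endothelium, averaged 7.20 ± 3.14 FPKM in tumour_swim and 1.96 ± 1.19 FPKM in control (1.44, limma adjusted p = 0.0126). Plvap, the diaphragm protein of fenestrated endothelium, averaged 12.8 ± 3.88 FPKM in tumour_swim and 3.21 ± 1.82 FPKM in control (1.70, limma adjusted p = 0.0148). Vwf and Plvap were called in all 4 fits. Of 15 smooth muscle and pericyte markers tested 0 were called by limma in the weighted fit and 3 had an unadjusted p under 0.05.

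**Figure D3:**
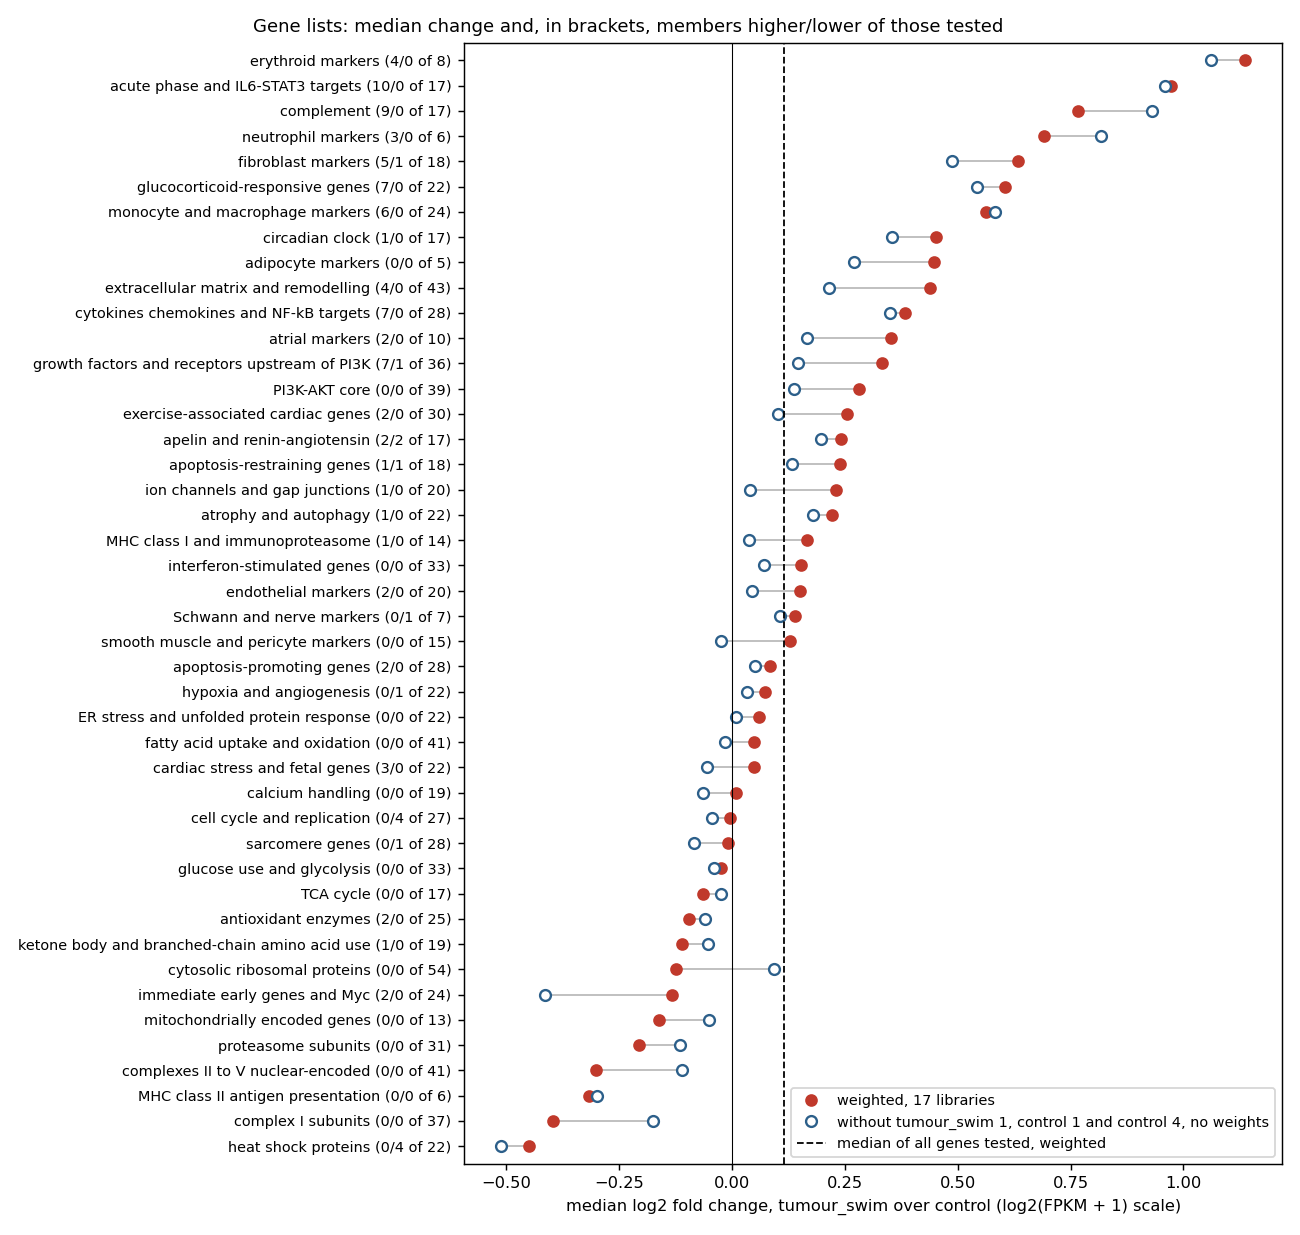
Median log2 fold change, tumour_swim over control, of each gene list with 5 or more tested members, in the weighted fit (filled) and without the 3 libraries that stood apart (open); the dashed line is the median of all genes, 0.11. Acute phase, complement, erythroid and neutrophil lists lie furthest to the right and heat shock proteins furthest to the left under both treatments, while complex I moves to -0.18 when the 3 libraries are left out.

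The largest fall was in Apln, the gene of apelin (chromosome X, 48025146 to 48034853 on the - strand). It had 0.262, 0.811, 0.443, 0.385, 0.859 and 0.605 FPKM in tumour_swim 1 to 6, against 4.48, 5.29, 5.34, 3.18 and 7.98 FPKM in controls 1 to 5. Every tumour_swim heart was below 1 FPKM and every control above 3 FPKM. The log2 fold change was -2.02 ± 0.15 (SE, limma adjusted p = 7.47e-07), and over 52 alternative settings it stayed between -3.01 and -1.75. Its receptor gene Aplnr had 0.689, 5.59, 4.50, 2.72, 4.91 and 2.59 FPKM in tumour_swim 1 to 6, against 6.87, 12.1, 8.85, 5.56 and 19.2 FPKM in controls. Tumour_swim 2 just overlapped control 4, and the call held with weights (-1.23, limma adjusted p = 0.0257) but not without them (adjusted p = 0.0611). Of 17 genes of the apelin and renin-angiotensin list tested, 2 were higher and these 2 lower. Esm1, a secreted product of endothelial tip cells, had 0 to 0.376 FPKM in tumour_swim and 1.01 to 1.84 FPKM in control (-0.93, limma adjusted p = 0.000150, called in all 4 fits). Angpt2, a vessel-destabilising ligand, averaged 0.481 ± 0.181 FPKM in tumour_swim and 1.21 ± 0.524 FPKM in control, and was called with weights but not without (limma adjusted p = 0.00627 and 0.0832).

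Rtn4r, the Nogo receptor gene (chromosome 16, + strand, 18127642 to 18152408), had 1.51 to 5.66 FPKM in tumour_swim (median 3.41), against 11.4, 12.97, 11.2, 7.99 and 13.7 FPKM in controls (-1.57 ± 0.28, SE, limma adjusted p = 0.00460). Nrep, a small protein of regenerating tissue, had 0.806 to 3.22 FPKM in tumour_swim (median 2.11), against 7.83, 7.70, 7.13, 7.11 and 10.96 FPKM in controls (-1.45 ± 0.21, SE, limma adjusted p = 0.00115). For both genes every tumour_swim heart lay below every control. Itgb6, an integrin subunit that activates TGF-beta, averaged 0.645 ± 0.177 FPKM in tumour_swim and 2.22 ± 0.907 FPKM in control (-1.04, limma adjusted p = 0.00143). Dbh, the noradrenaline-making enzyme of sympathetic nerves, averaged 0.628 ± 0.173 FPKM in tumour_swim and 2.16 ± 0.545 FPKM in control, and was the 1 called gene among 7 Schwann and nerve markers tested (-0.87, limma adjusted p = 0.00845). Klhdc8a, a kelch-domain gene, averaged 2.23 ± 0.823 FPKM in tumour_swim and 6.19 ± 2.54 FPKM in control (-1.07, limma adjusted p = 0.0209). All 5 genes of this paragraph were called in all 4 fits.

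**Figure D4:**
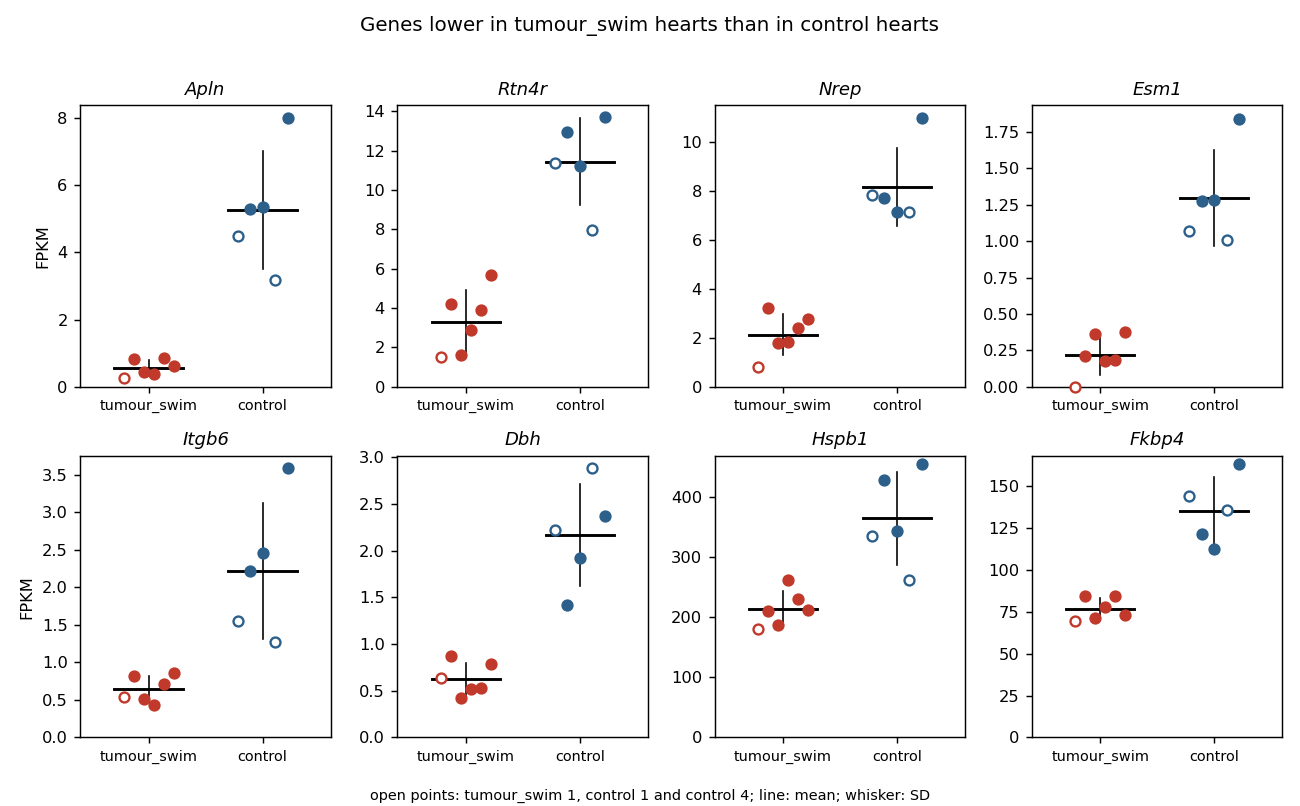
FPKM of 8 genes in each tumour_swim (left) and control (right) heart, with mean and SD; open points are tumour_swim 1, control 1 and control 4. The tumour_swim hearts lie below every control for all genes drawn except Hspb1, where tumour_swim 4 and control 4 meet near 262 FPKM.

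Several heat shock genes were lower in tumour_swim hearts. Of 22 heat shock proteins and co-chaperones tested 0 were higher and 4 lower in the weighted fit and 2 lower without weights, against 0.754% of all genes called lower with weights, and the list median was -0.45 in the weighted fit, -0.51 without the 3 libraries that stood apart and -0.58 with median-of-ratios scaling without weights. Hspb1, a small heat shock protein, had 180, 210, 187, 262, 230 and 211 FPKM in tumour_swim 1 to 6, against 336, 428, 344, 262 and 454 FPKM in controls 1 to 5. Only tumour_swim 4 reached the level of control 4 (-0.79 ± 0.16, SE, limma adjusted p = 0.0104). Fkbp4, an HSP90 co-chaperone, had 69.6 to 84.8 FPKM in tumour_swim (median 75.4), against 145, 121, 113, 136 and 163 FPKM in controls, with no overlap (-0.73 ± 0.15, SE, limma adjusted p = 0.0129). Both were called in all 4 fits. Hsph1, which recharges HSP70 with ATP, averaged 5.05 ± 2.66 FPKM in tumour_swim and 12.6 ± 6.28 FPKM in control (-1.18, limma adjusted p = 0.0220 with weights and 0.117 without). Hspe1, the mitochondrial chaperonin lid, averaged 48.7 ± 17.4 FPKM in tumour_swim and 93.6 ± 42.2 FPKM in control (-0.80, limma adjusted p = 0.0307). Its call was lost without weights (adjusted p = 0.150), without the 3 libraries (0.0838) and without tumour_swim 1, 3 or 4 or control 1 or 4 singly (0.0533 to 0.0585).

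Further genes of chaperone function, picked after their values were seen, were Cacybp, which ties HSP90 to protein turnover, and Ahsa1, the activator of the HSP90 ATPase. Cacybp averaged 20.7 ± 3.41 FPKM in tumour_swim and 34.1 ± 3.06 FPKM in control (-0.63, limma adjusted p = 0.0120). Ahsa1 averaged 14.1 ± 2.28 FPKM in tumour_swim and 21.3 ± 2.23 FPKM in control (-0.49, limma adjusted p = 0.0379, and 0.0595 to 0.0636 without tumour_swim 3 or tumour_swim 4). Lmod3, an actin nucleator of the sarcomere, averaged 25.3 ± 6.31 FPKM in tumour_swim and 47.1 ± 9.22 FPKM in control (-0.81, limma adjusted p = 0.00288). Cryab, the chaperone of desmin and titin, averaged 560 ± 65.8 FPKM in tumour_swim and 788 ± 82.7 FPKM in control with no overlap (-0.46, limma adjusted p = 0.0390), but was not called without weights (adjusted p = 0.0642) or without tumour_swim 2, 3 or 4 (0.0574 to 0.0713). The summed level of immediate early genes, which many stimuli induce within minutes, was 149 to 370 FPKM in tumour_swim and 153 to 316 FPKM in 4 controls, but 1087 FPKM in control 2. The part of what raised them in control 2 in the heat shock change was not tested.

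The 4 called heat shock genes were looked at upstream of their starts, because all were lower in tumour_swim and share a known regulator. Hspe1 and Hsph1 did not follow each other across hearts. In controls 1 to 5 Hspe1 had 126, 52.6, 53.6, 146 and 89.4 FPKM. Hsph1 had 8.26, 19.5, 17.4, 4.39 and 13.4 FPKM in those controls. RefSeq promoter windows (GRCm38.p6) were matched for 18 of the 22 tested list members. The head-to-head pair of heat shock units, GAANNTTC, which reads the same on both strands, was present within the 300-base windows of 10 of these 18 and of all 4 called genes. It was present in 5.54% of 9654 windows of tested genes and in 7.95% of all 27025 windows. The tail-to-tail pair, TTCNNGAA, was present in 3 of the 18 and in 2 of the 4, against 6.76% of windows of tested genes; the 2 motifs can overlap. A match is a description of letters and not evidence of binding. The 250 bases before the start are printed 5′ to 3′ for 3 of these genes, to show where matches fall; capitals mark GAANNTTC or TTCNNGAA.
Hspb1, chr5:135887669-135887918, + strand: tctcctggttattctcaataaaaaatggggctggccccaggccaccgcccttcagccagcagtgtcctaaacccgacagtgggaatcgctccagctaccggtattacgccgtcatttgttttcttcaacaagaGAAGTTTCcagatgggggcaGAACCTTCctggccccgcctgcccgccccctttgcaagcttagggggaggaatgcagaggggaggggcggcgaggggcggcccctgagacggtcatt
Fkbp4, chr6:128438657-128438906, - strand: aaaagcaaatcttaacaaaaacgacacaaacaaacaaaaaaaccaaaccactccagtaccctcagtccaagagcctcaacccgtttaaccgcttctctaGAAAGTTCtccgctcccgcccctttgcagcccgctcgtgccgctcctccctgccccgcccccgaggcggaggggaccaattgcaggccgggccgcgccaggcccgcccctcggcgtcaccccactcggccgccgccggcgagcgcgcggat
Hspe1, chr1:55087898-55088147, + strand: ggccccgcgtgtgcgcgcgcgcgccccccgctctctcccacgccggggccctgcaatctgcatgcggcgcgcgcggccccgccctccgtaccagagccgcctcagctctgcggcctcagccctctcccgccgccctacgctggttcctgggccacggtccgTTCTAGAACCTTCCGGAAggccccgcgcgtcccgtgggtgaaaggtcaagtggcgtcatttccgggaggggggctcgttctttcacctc
Hspb1 held 2 separate head-to-head pairs, Fkbp4 held 1, and Hspe1 held a head-to-head pair flanked on both sides by overlapping tail-to-tail pairs. The same search for STAT letters, TTCNNNGAA, found 6 of 25 matched genes of the acute phase list, untested ones included, and 2 of the 7 called. These letters were present in 6.66% of windows of tested genes and 8.47% of all windows. The C/EBP letters, TTGCNNAA, were present in 9 of those 25 and 1 of the 7, and in 3 of 13 matched genes of the complement list, all 3 among the 6 called. They were present in 8.18% of windows of tested genes and 10.75% of all windows.
The 250 bases before C3, on the - strand, hold 1 such C/EBP match, shown in capitals.
C3, chr17:57228137-57228386, - strand: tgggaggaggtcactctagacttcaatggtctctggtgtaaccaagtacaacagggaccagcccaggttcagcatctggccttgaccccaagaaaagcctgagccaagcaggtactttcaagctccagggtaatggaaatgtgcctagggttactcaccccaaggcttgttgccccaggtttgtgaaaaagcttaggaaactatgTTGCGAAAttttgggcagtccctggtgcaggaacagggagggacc

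Genes that respond to glucocorticoids, the adrenal stress hormones, had 7 of 22 tested members higher and 0 lower, against 2.8% and 0.754% of all genes. The list median was 0.61, 4 were higher without weights, and 1 was called in all 4 fits. The summed level of the list was 934 to 1142 FPKM in tumour_swim, against 615, 988, 1045, 440 and 639 FPKM in controls 1 to 5. Controls 2 and 3 thus lay within the tumour_swim range. Mt1, a zinc- and copper-binding metallothionein, had 737, 200, 316, 299, 233 and 404 FPKM in tumour_swim 1 to 6, against 173, 85.5, 91.0, 137 and 140 FPKM in controls (1.22, limma adjusted p = 0.00745). The groups did not overlap, although with median-of-ratios scaling and no weights the adjusted p was 0.0918. Mt2, its neighbour, averaged 6.63 ± 7.04 FPKM in tumour_swim and 0.375 ± 0.380 FPKM in control without overlap (1.67, limma adjusted p = 0.0475), a call lost without the 3 libraries (adjusted p = 0.0782). It was also lost without tumour_swim 2, 3, 4, 5 or 6, or tumour 2 or 3, singly (0.0506 to 0.0769). Fkbp5, a co-chaperone of the glucocorticoid receptor, averaged 9.27 ± 3.45 FPKM in tumour_swim and 3.80 ± 1.53 FPKM in control (1.07, limma adjusted p = 0.00758 with weights and 0.0755 without). Cebpd, a C/EBP factor of the acute phase, averaged 12.6 ± 3.03 FPKM in tumour_swim and 6.57 ± 2.28 FPKM in control with no overlap (0.97, limma adjusted p = 0.0198), and was not called with median-of-ratios scaling without weights (adjusted p = 0.109). Cebpd is also a member of the acute phase list.

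The core of the pathway named in the title had no called member in the weighted fit, though this depended on the setting. Of 39 PI3K-AKT core genes tested 0 were called by limma in either direction in the weighted fit, without weights, without the 3 libraries or with median-of-ratios scaling without weights, and the list median was 0.28 in the weighted fit against 0.11 for all genes, or 0.14 against 0.07 without the 3 libraries. At an unadjusted p under 0.05 there were 17 of 39 in the weighted fit, or 43.6%, against 25.2% of all genes tested. Settings that called many more genes overall also called core genes, all but 1 of them higher: 14 with weighted median-of-ratios scaling, 12 with quantile normalization, 14 of 40 with mitochondrially encoded genes left out, 12 without weights and without tumour_swim 1, 33 without control 2 or control 3, with 1 lower in both, and 3, 3, 3 and 5 without tumour_swim 1, control 1, control 4 or control 5. Akt1 had 26.5, 45.9, 56.7, 47.9, 40.3 and 53.0 FPKM in tumour_swim 1 to 6, against 39.9, 45.7, 36.0, 36.4 and 51.9 FPKM in controls, so the groups overlapped throughout (0.15 ± 0.16, SE, limma adjusted p = 0.555). Pik3ca, the catalytic subunit of PI3K, averaged 7.06 ± 2.50 FPKM in tumour_swim and 6.37 ± 2.23 FPKM in control (limma adjusted p = 0.420). These values are transcript levels and say nothing of phosphorylation. Of 36 growth factors and receptors upstream of PI3K 7 were higher and 1 lower, against 2.8% and 0.754% of all genes. Their median was 0.33, but without weights 1 was higher and 0 lower. Among them Igf1, insulin-like growth factor 1, averaged 3.64 ± 1.29 FPKM in tumour_swim and 1.47 ± 0.493 FPKM in control (0.94, limma adjusted p = 0.0273), and was not called without weights (adjusted p = 0.0820) or without tumour_swim 2 (0.0546).

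Of 28 apoptosis-promoting genes tested 2 were higher and 0 lower, and of 18 apoptosis-restraining genes 1 was higher and 1, Hspb1, lower, against 2.8% higher and 0.754% lower over all genes. At an unadjusted p under 0.05 were 25.0% of the promoting and 38.9% of the restraining genes, against 25.2% of all genes. Bcl2l11, the BH3-only protein BIM, averaged 2.27 ± 0.809 FPKM in tumour_swim and 1.24 ± 0.625 FPKM in control (0.57, limma adjusted p = 0.0467), and Tnfrsf1a, the main TNF receptor, 30.3 ± 9.68 FPKM in tumour_swim and 18.0 ± 6.23 FPKM in control (0.74, limma adjusted p = 0.0332). Neither was called without weights (adjusted p = 0.291 and 0.270) or without the 3 libraries (0.0983 and 0.0719). Bcl2l11 was also lost without tumour_swim 2, 3 or 4 or tumour 3, 4 or 6 (0.0512 to 0.0814), and Tnfrsf1a without tumour_swim 3 (0.0521). Pim3, a survival kinase, was called with weights (0.73, limma adjusted p = 0.0220) and not without (adjusted p = 0.138). Bax averaged 9.53 ± 2.52 FPKM in tumour_swim and 11.3 ± 3.67 FPKM in control, and Bcl2 averaged 1.44 ± 0.486 FPKM in tumour_swim and 1.19 ± 0.564 FPKM in control, and neither was called (limma adjusted p = 0.488 and 0.384).

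Of 28 sarcomere genes tested 1, Cryab, was called, and of 22 cardiac stress and fetal genes 3, the metallothioneins Mt1 and Mt2 and the growth factor Tgfb2, were higher, against 3.55% of all genes called. At an unadjusted p under 0.05 were 46.4% of the sarcomere genes and 54.5% of the stress and fetal genes, against 25.2% of all genes tested. Acta1, skeletal actin, had 607, 1604, 307, 531, 1223 and 2065 FPKM in tumour_swim 1 to 6, against 2292, 2800, 1847, 1858 and 3134 FPKM in controls. Tumour_swim 6 alone reached the control range, and tumour_swim 3 was the lowest heart (-1.39 ± 0.62, SE, limma adjusted p = 0.175); reads of actin paralogues may be shared. Myh6, the fast adult myosin heavy chain, averaged 2890 ± 1041 FPKM in tumour_swim and 2112 ± 1075 FPKM in control (limma adjusted p = 0.174). Myh7, the slow heavy chain, averaged 66.6 ± 22.7 FPKM in tumour_swim and 40.2 ± 20.9 FPKM in control (limma adjusted p = 0.303). Nppa averaged 24.7 ± 20.2 FPKM in tumour_swim and 13.4 ± 7.25 FPKM in control, and Nppb 243 ± 174 FPKM in tumour_swim and 306 ± 128 FPKM in control (limma adjusted p = 0.687 and 0.513). Of 30 exercise-associated cardiac genes tested 2 were higher and 0 lower, against 2.8% and 0.754% of all genes, and neither was called without weights.

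Cell cycle genes had 4 of 27 tested members lower and 0 higher, against 0.754% and 2.8% of all genes. Ccnd1, the G1 cyclin D1, had 0.891, 5.16, 4.70, 4.61, 6.73 and 4.51 FPKM in tumour_swim 1 to 6, against 6.74, 12.8, 10.01, 4.27 and 8.72 FPKM in controls (-0.75, limma adjusted p = 0.0197 with weights and 0.215 without). Mki67, Top2a and Ube2c, which mark dividing cells, averaged 0.199, 0.122 and 0.257 FPKM in tumour_swim and 0.632, 0.506 and 0.746 FPKM in control, near the limit of expression (log2 fold changes of -0.46, -0.45 and -0.42, limma adjusted p = 0.0430, 0.0414 and 0.0401). All 3 were lost without tumour_swim 3 or 4 singly, Mki67 also without tumour_swim 5 or tumour 1, and Ube2c also without tumour_swim 1 or 5 or control 1, 4 or 5 (adjusted p = 0.0504 to 0.136 over these). Without weights Mki67 and Top2a were not called (limma adjusted p = 0.144 and 0.113), and without the 3 libraries Ube2c was not (adjusted p = 0.101).

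Mitochondrial genes moved with the libraries that stood apart. Of 37 complex I subunits tested 0 were called by limma in the weighted fit. At an unadjusted p under 0.05 were 7, or 18.9%, against 25.2% of all genes tested. The list median was -0.40 with weights and -0.18 without the 3 libraries. The summed level of complex I was 10174 FPKM in tumour_swim 1, 12411 FPKM in control 1 and 15920 FPKM in control 4, against 4859 to 5832 FPKM in the other tumour_swim hearts and 4941, 5012 and 8570 FPKM in controls 2, 3 and 5. The 41 nuclear-encoded genes of complexes II to V likewise had 0 calls, 4 (9.8%) at an unadjusted p under 0.05, and medians of -0.30 and -0.11. Weighted median-of-ratios scaling called 29 complex I genes and 23 genes of complexes II to V lower, quantile normalization 14 and 9, and leaving out control 2 or control 3 called 36 and 40 lower. Among 41 genes of fatty acid uptake and oxidation, 33 of glucose use and glycolysis, 17 of the TCA cycle, 54 ribosomal proteins and 31 proteasome subunits limma called none in the weighted fit, with 8, 5, 2, 1 and 7 at an unadjusted p under 0.05. Those are 19.5%, 15.2%, 11.8%, 1.9% and 22.6% of the lists, all below the 25.2% of all genes tested. Of the proteasome subunits 26 were called lower with weighted median-of-ratios scaling and 13 with quantile normalization.

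Set against tumour hearts that did not swim, tumour_swim hearts had 32 genes higher and 13 lower in the weighted fit, or 0.336% of those tested. Without weights 0 were called by limma. There 493 of the 13402 genes tested had an unadjusted p under 0.05, a smaller share than the 0.05 that no difference gives on average. Without tumour 3 the weighted fit gave 1 higher and 0 lower. Called in the weighted fit against both control and tumour were 5 genes, and both contrasts share the tumour_swim libraries. Rtn4r averaged 3.30 ± 1.62 FPKM in tumour_swim, 1.41 ± 0.601 FPKM in tumour and 11.4 ± 2.20 FPKM in control (0.97 against tumour, limma adjusted p = 0.0360). Hspb1 averaged 213 ± 29.9 FPKM in tumour_swim, 151 ± 23.7 FPKM in tumour and 365 ± 77.3 FPKM in control (0.57 against tumour, limma adjusted p = 0.0314). S100a8, Serpina3h and Myc lay between the other groups in the opposite sense. Their means were 2.81 ± 1.21, 6.36 ± 2.02 and 1.52 ± 0.656 FPKM in tumour_swim, 6.28 ± 2.96, 11.2 ± 2.39 and 2.89 ± 0.660 FPKM in tumour, and 0.339 ± 0.230, 1.74 ± 0.236 and 0.543 ± 0.219 FPKM in control. The log2 fold changes against tumour were -1.02, -0.69 and -0.56 (limma adjusted p = 0.0314, 0.0327 and 0.0456). Myc, a growth-promoting transcription factor, was called against control with weights (0.74, limma adjusted p = 0.0227) and not without (adjusted p = 0.0832).

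**Figure D5:**
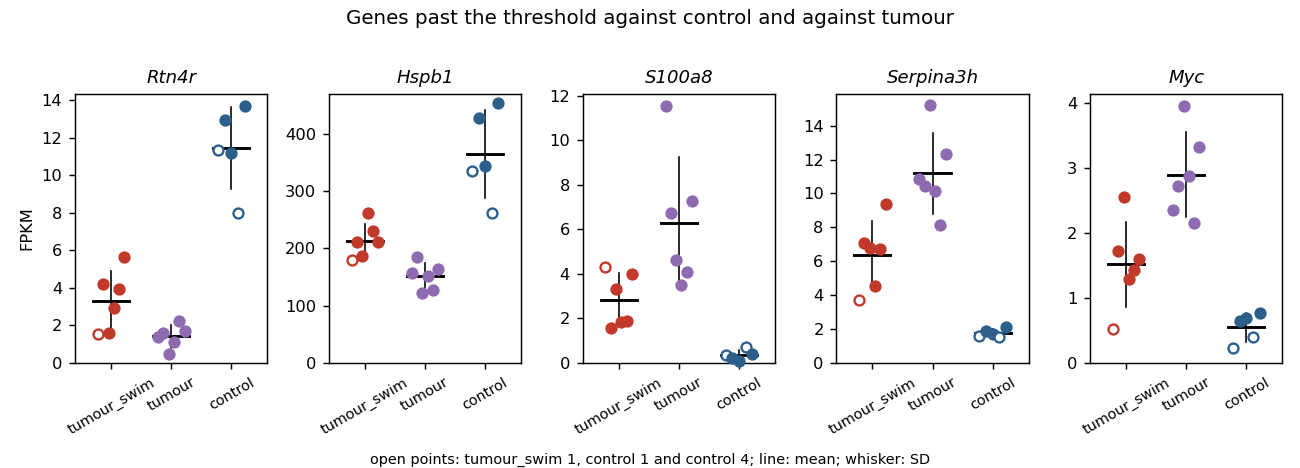
FPKM of the 5 genes called in the weighted fit against both control and tumour, in each tumour_swim, tumour and control heart, with mean and SD; open points are tumour_swim 1, control 1 and control 4. The tumour_swim mean lies between the other means in all 5, for example 213 FPKM for Hspb1 against 151 in tumour and 365 in control.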

How the data were processed

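Per the labels, RNA came from TRIzol extracts and libraries from a NEBNext Ultra kit. Tools named in the submitters' processing notes are FastQC, fastp and bcl2fastq, with the build mm10; aligner, counter and annotation are not given in these sources. The table deposited by the authors holds 1 FPKM value per gene and library; the unit was inferred, since values times GENCODE M21 exon length sum to 99.0% to 99.7% of the total expected and 98.7% to 99.1% of values below 20 reads lie within 0.1 of a whole read. Depth was taken from that read step (13.4 to 19.8 M). Gene positions come from GENCODE M21, which matched 28268 IDs and not 372. Libraries of a group differed beyond sampling noise in all 40 pairs, with a chi-square per degree of freedom of at least 11.5.

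From these values limma 3.58.1 in R 4.3.3 fitted log2(FPKM + 1) in all 17 libraries on group, with sample weights (arrayWeights) and a mean trend. Alternatives changed weights, scaling, filter, pseudocount, threshold, library set and single libraries. Exact permutation tests of library measures used scipy 1.17.1 under Python 3.11.15. The gene test was tested on simulated data. The members and the 48 gene lists were chosen with earlier results of these data known. Some genes, such as Hspb1 and Tgfb2, belong to several lists, so counts of different lists are not separate results. Genes were named by a rule: the 12 largest rises and 12 largest falls among calls with a mean of at least 1 FPKM, up to 3 called members of each list, and a fixed set. Socs3, Lcn2, Serpina3h, Serping1, Ccl11, Plvap, Esm1, Lmod3, Hspe1, Cacybp, Ahsa1 and Mki67 were added after their values were seen. Some genes that the rule names are not reported here.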

Additional observations from a re-analysis of the deposited data

Results flagged for a closer look

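In 26 of 148 gene-by-group sets of values checked, the highest or lowest library lay further from the rest than Dixon's 95% limit allows; chance flags about 1 in 20. Tumour_swim 1 and control 4 account for 23 of the 26, and tumour_swim 1 for all but a few. Tumour_swim 1 was far below the other tumour_swim hearts, in FPKM, for C3 (26.2), C1s1 (5.01), Serping1 (74.1), Osmr (1.03), Icam1 (1.03), Cd163 (1.66), Lyve1 (4.13), Fbln1 (10.4), Pdgfra (1.63), Lox (0.251), Mmp2 (16.2), Ccnd1 (0.891), Fkbp5 (3.45), Tnfrsf1a (12.4), Bcl2l11 (0.747), Pim3 (32.0), Tgfb2 (0.815), Pik3ca (2.11), Bcl2 (0.458) and Myh6 (916). It was far above them for Hspe1 (83.8) and Mt2 (20.9). S100a9 stood apart in tumour_swim 4, at 1.74 FPKM, and in control 4, at 1.96 FPKM. Control 5 was the high library of its group for Nrep (10.96) and Lmod3 (63.2). The part of the shortage of long transcripts in the values of tumour_swim 1 was not tested.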

How the results depend on the processing

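The count of calls depended on the setting more than the size of single changes did. For tumour_swim against control, genes higher and lower numbered 375 and 101 in the weighted fit, 92 and 24 at an adjusted p of 0.01, 638 and 172 with gene-by-gene weights, 76 and 50 without weights, 262 and 90 without the 3 libraries (819 and 205 weighted), 36 and 12 in the 11 libraries alone without weights (685 and 140 weighted), and 194 and 123 with a replicate block. With weights, median-of-ratios scaling gave 1762 and 1839, quantile normalization 1610 and 1576, leaving out mitochondrially encoded genes 2032 and 1079, and removing the length trend 732 and 735; no low-value filter gave 431 and 193, and a mean of 2 FPKM 272 and 71. Unweighted median-of-ratios gave 190 and 178, and 262 and 240 without the 3 libraries. Single leave-outs spanned 246 to 7480 and 78 to 3450 with weights, and 36 to 1820 and 18 to 371 without.
For tumour_swim against tumour, 32 and 13 became 0 and 0 without weights and with unweighted median-of-ratios, 1 and 0 without the 3 libraries (7 and 2 weighted), 4 and 0 at 0.01, 12 and 5 with the replicate block, 2 and 3 unfiltered, 137 and 38 at 2 FPKM, 75 and 53, 72 and 52, and 49 and 59 with median-of-ratios, quantile and no mitochondrial genes, and 101 and 89 with the length trend removed; leave-outs spanned 1 to 233 and 0 to 110 with weights, and all gave 0 and 0 without.
No called gene named here changed sign. The uncalled Akt1 (-0.067) and Nppa (-0.16) turned with weighted median-of-ratios and Nppa with quantile scaling (-0.024). Without the 3 libraries, weighted, Bax (0.13) and Bcl2 (-0.017) turned; so did Pik3ca and Bcl2 with the replicate block (-0.012 and -0.0016) or the length trend removed (-0.043 and -0.060), and both with unweighted median-of-ratios without the 3 (-0.065 and -0.022). Leave-outs, weighted or not, spanned -0.088 to 0.63 for Pik3ca, -0.53 to 0.11 for Bax and -0.31 to 1.501 for Nppa. The causes were not tested.
Same-numbered tumour_swim and control libraries deviated together with r of 0.68, 0.48, 0.44, -0.67 and 0.06. Differently numbered libraries were not compared, so these values cannot tell whether replicate numbers pair the samples. The main fit took the samples as unpaired. At a median depth of 15.7 M reads, genes near 0.5 FPKM rest on few reads.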

Other observations

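The clock genes had a list median of 0.45 over 17 tested members, against 0.11 for all genes, and 1 was called. All 17 had a positive fold change in the weighted fit. Arntl and Npas2, clock genes below the limit of expression, averaged 0.225 and 0.418 FPKM in tumour_swim and 0.444 and 0.337 FPKM in control. Without the 3 libraries that stood apart the list median was 0.35, against 0.07 for all genes. Of 33 interferon-stimulated genes 0 were called by limma in the weighted fit, with 2 at an unadjusted p under 0.05 and a median of 0.15, and of 6 MHC class II genes 0 were called, with 0 at that p and a median of -0.32. Lung markers summed to 68.7 to 88.6 FPKM in tumour_swim and 80.8 to 153 FPKM in control. Of the 8 lung markers with values only 1 passed the limit of expression, so nearly all of that sum is 1 gene. Skeletal muscle markers summed to 384 to 637 FPKM in tumour_swim and 493 to 645 FPKM in control, with 4 of 11 past the limit. These sums do not show lung or skeletal muscle tissue in the samples. Atrial markers summed to 63.8 to 101 FPKM in tumour_swim and 40.3 to 67.7 FPKM in control. Among 22 genes of the unfolded protein response 0 were called by limma in the weighted fit. At an unadjusted p under 0.05 were 5, or 22.7%, against 25.2% of all genes tested. Their median was 0.06, in the hearts where the heat shock list had a median of -0.45.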
